A study of Mus musculus with 8 samples.

Results

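Squamous cell carcinomas of mouse skin that had lost the nuclear receptor gene Nr2f2 were compared with carcinomas that kept it. The comparison uses 4 of the 8 arrays in the series, 2 of knockout (KO) carcinoma and 2 of control carcinoma, chosen by their titles, and covers 10669 genes that passed a filter on dim probe sets, of 17097 genes with a probe set of a single gene symbol. The cells were tumour cells sorted by flow cytometry for the epithelial surface protein Epcam, and their total RNA was read on Affymetrix Mouse Genome 430 PM strip arrays. The KO genotype is given as K5CreER;NR2F2fl/fl, that is, a CreER recombinase made from the keratin 5 promoter, which is active in basal keratinocytes, together with floxed Nr2f2 alleles. The controls are labelled Cre- and NR2F2 WT. How the tumours arose, when the deletion was induced and the age of the mice are not given in the sources used here. Nothing in the labels ties the 2 arrays of a group to different mice, and the p-values cover only the spread among the arrays. The X-inactivation transcript Xist (8.78, 6.51, 4.25 and 8.67) and the Y-linked gene Eif2s3y (3.79, 7.45, 8.62 and 4.0) differed within both groups, so the KO arrays did not hold RNA of 1 and the same mouse. On control 2 both transcripts were above background. Values are log2 levels after RMA, the standard summary of Affymetrix probes, and, here and throughout, 4 values stand in the order control 1, control 2, KO 1, KO 2.

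NR2F2 or COUP-TFII belongs to the orphan nuclear receptors. It binds repeats of the sequence AGGTCA and can repress or activate genes. It is best known from the development of veins, lymphatic vessels and mesenchymal organs, and it can counter retinoic acid signalling by competing for binding sites and for the partner receptor RXR. Squamous carcinoma cells of the skin range from epithelial cells rich in keratins to cells that express vimentin, fibronectin and other genes of mesenchymal cells.

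The sorted cells carried the markers of basal keratinocytes on all 4 arrays. Epcam, the sorting antigen, stood at 11.79, 11.36, 11.51 and 11.44. The basal keratins were near the top of the scale, with Krt5 at 12.75, 12.70, 12.64 and 12.67 and Krt14 at 12.43, 12.35, 12.32 and 12.29. The adhesion gene Cdh1 stood at 9.91, 9.19, 9.54 and 9.06, and Trp63, the p63 transcription factor of squamous epithelium, at 10.58, 10.77, 10.73 and 11.16. The groups overlapped for Epcam, Cdh1 and Trp63. For Krt5 and Krt14 both KO arrays lay just below both controls.

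The arrays of control tumours were not alike in their content of other cells. The summed linear level of 28 fibroblast markers was 4217 on control 1, 12710 on control 2, 2491 on KO 1 and 5398 on KO 2, and 18 of the 28 were above background on all arrays. That of 25 macrophage and monocyte markers was 1148, 3052, 1096 and 1202, with 11 above background on all arrays. Background is the level of the brightest among 44 probe sets that target non-mouse sequences, and it lay at 4.95 to 5.01. In these 2 sums control 2 thus stood apart from the other 3 arrays, so many list medians are also given against each control array. The sum of 23 endothelial markers was instead highest on control 1, at 8975, 8477, 7365 and 6442. Its brightest markers, which weigh most in a linear sum, were Ramp2 (12.22, 12.45, 12.19 and 12.14) and Pdpn (11.67, 10.57, 10.93 and 10.12). The mean log2 level of the same 23 markers was highest on control 2, at 5.749, 6.242, 5.495 and 5.576. Of the defining markers, Col1a2 and Pdgfra for fibroblasts, Cd3e and Cd3g for lymphocytes and Des for pericytes were at or below background on every array, and Adgre1, Lum, Kdr, Emcn, Plvap and Ptprc were above it on control 2 alone. Above it on all arrays were Col1a1, Col3a1, Dcn and Pdgfrb for fibroblasts, C1qc, Cd68 and Csf1r for macrophages, and Pecam1 and Cdh5 for endothelium. So were Cd79a for lymphocytes, Rgs5 and Acta2 for pericytes, and H2-Aa, H2-Ab1, H2-Eb1 and Cd74 for dendritic cells. Lyz2, C1qa and C1qb were above it on 3 arrays. Because these are bulk samples, fewer cells of a type and less RNA per cell cannot be told apart.

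Nr2f2 followed the labels. Its brightest probe set stood at 7.93 and 8.14 on the control arrays and at 4.77 and 5.0 on the KO arrays, where background was 5.01 and 4.95. KO 1 was thus below background and KO 2 just above it. The groups did not overlap. The mean was 8.03 ± 0.15 (SD, n = 2) in the controls and 4.89 ± 0.16 in the KO, a log2 difference of -3.15 (SE 0.19), or 8.85-fold on the measured values, with a limma adjusted p of 0.246. Its 4 probe sets differed by -3.15, -3.07, -1.61 and -0.32. Which of them lie in the deleted part was not examined here. Among the related receptors and partners, 11 of 16 listed genes were tested and Nr2f2 was the 1 that lay apart. Nr2f6, another member of the NR2F family, differed by -0.16 and the partner receptor gene Rxra by 0.04.

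No gene passed the adjusted threshold of 0.05 in limma on these 4 arrays (0 of 10669, 0.0%). The lowest adjusted p was that of Nr2f2. At an unadjusted p under 0.05 there were 1320 genes (12.4%), 820 higher (7.69%) and 500 lower (4.69%), where 533 would be drawn by chance. When the papilloma arrays of the series were added to estimate the spread, 5 genes passed, Fermt2, Gabre, Nr2f2, Rps6ka6 and Tnfrsf11b. An exact two-sided permutation test of 2 arrays against 2 cannot give a p below 0.333. The genes described here were therefore picked out by size. A gene is said to lie apart when all 4 differences between a KO and a control array were at least 1.5-fold in the same direction and both arrays of the brighter group were above background. By this rule 199 genes (1.87%) lay apart with higher and 201 (1.88%) with lower levels in the KO, together 3.75% of the genes. At 2-fold in all 4 pairs the split was uneven, with 13 genes (0.122%) higher and 73 (0.684%) lower. Over all genes, without any rule, 54.2% of the differences were above 0 and 45.7% below. The rule is a description and not a test, and the groups failed to overlap, by any amount, in 45.0% of all genes. Of the 400 genes, 8 of the higher and 47 of the lower were above the filter in 1 group alone, so that they could enter only through the brighter group.

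**Figure D1:**
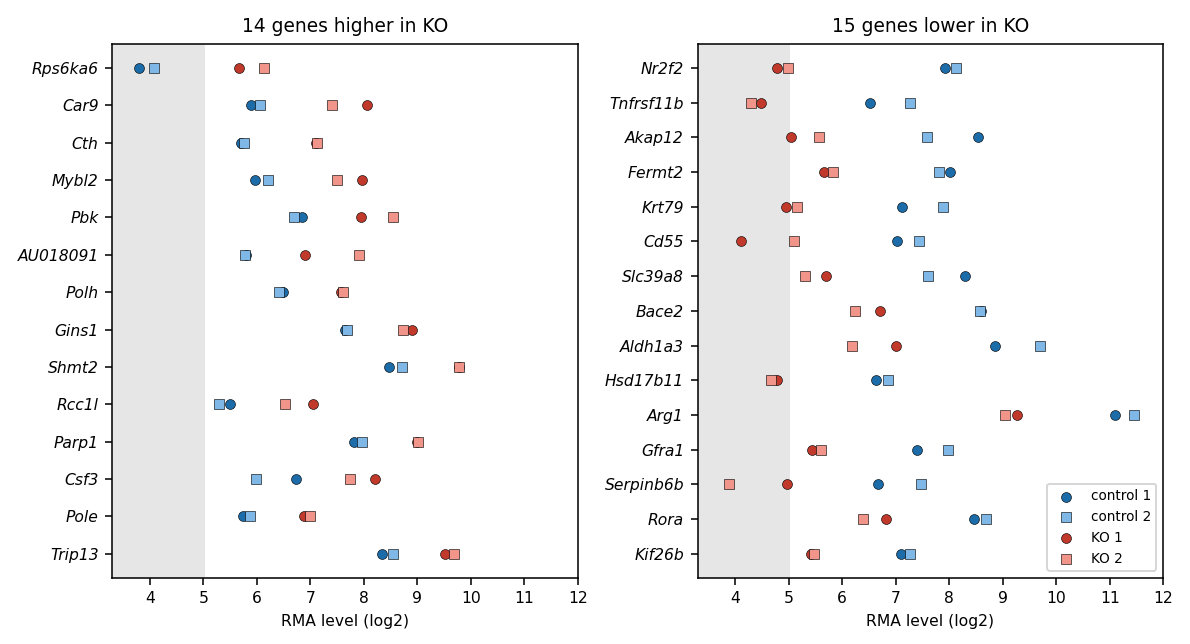
RMA log2 levels on each of the 4 arrays for 14 of the 15 genes higher and all 15 genes lower in the KO with the widest gap between the groups. Blue points are control arrays 1 and 2, red points KO arrays 1 and 2, and grey marks levels at or below the highest background of the 4 arrays. In each gene the red and blue points do not overlap, as the choice of genes requires, and several of the lower genes, such as Nr2f2 and Tnfrsf11b, reach the grey zone in the KO.

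The widest gap towards higher levels was that of Rps6ka6, which encodes the kinase RSK4. It stood at 3.80, 4.08, 5.68 and 6.14, so it was below background in both controls and above it in both KO arrays, a difference of at least 1.91-fold. Its other probe set differed by 0.27. Car9, the cell-surface carbonic anhydrase known as a hypoxia target, stood at 5.89, 6.05, 8.06 and 7.40 (log2 difference 1.77, SE 0.27). Mybl2, the MYB family activator of late cell cycle genes, stood at 5.97, 6.21, 7.97 and 7.50 (1.64, SE 0.23). Cth, the enzyme that makes cysteine from cystathionine, was the tightest of these, at 5.70, 5.76, 7.11 and 7.12 (1.39, SE 0.16). Csf3, the gene of granulocyte colony-stimulating factor, stood at 6.73, 5.99, 8.21 and 7.74 (1.62, SE 0.33).

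The others of the 15 were mostly genes of DNA replication, repair and chromosome segregation. Pole, the catalytic subunit of DNA polymerase epsilon, stood at 5.74, 5.88, 6.88 and 6.99, and Gins1, part of the replicative helicase, at 7.65, 7.68, 8.91 and 8.73. Parp1, a sensor of DNA breaks, stood at 7.82, 7.97, 9.0 and 9.01, and all 3 of its probe sets were higher by 0.74 or more. Polh, a polymerase that copies damaged DNA, differed by 1.15, and Trip13, a mitotic checkpoint ATPase, by 1.16. For Polh and Trip13 the smallest difference among the probe sets was 0.18 and 0.04. The mitotic kinase gene Pbk differed by 1.47, the mitochondrial serine hydroxymethyltransferase gene Shmt2 by 1.18, Rcc1l by 1.39 and AU018091 by 1.61. The limma adjusted p was 0.345 for each of the genes named in these 2 paragraphs.

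Among the genes with lower levels the largest gap after Nr2f2 was that of Tnfrsf11b, which encodes osteoprotegerin, the decoy receptor for RANKL. It stood at 6.52 and 7.26 in the controls and below background at 4.48 and 4.30 in the KO, at least 3.77-fold lower. Akap12, a scaffold for protein kinases at the cell cortex, stood at 8.54, 7.58, 5.04 and 5.56 (-2.76, SE 0.39, 6.78-fold on the measured values). On KO 1 it was just above the background of 5.01. Fermt2, which encodes the integrin activator kindlin-2, stood at 8.02, 7.82, 5.65 and 5.83 (-2.18, SE 0.18, 4.52-fold). The 3 Fermt2 probe sets ranged from -2.18 to -0.21.

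Several of the lower genes encode enzymes and transporters. Arg1, arginase, was the brightest, at 11.10, 11.45, 9.26 and 9.04 (-2.12, SE 0.21, 4.36-fold). Aldh1a3, which oxidises retinaldehyde to retinoic acid, stood at 8.86, 9.69, 7.0 and 6.18 (-2.68, SE 0.41, 6.42-fold), and its 3 probe sets ranged from -3.07 to -1.96. Bace2, an aspartyl protease of the secretase family, stood at 8.59, 8.57, 6.70 and 6.23 (-2.11, SE 0.22), though another of its probe sets differed by -0.12. Slc39a8, a zinc and manganese importer, stood at 8.29, 7.60, 5.70 and 5.31 (-2.44, SE 0.30), with its other probe set at -0.53. Hsd17b11, a dehydrogenase found on lipid droplets, was below background in the KO and at least 3.40-fold lower, while another of its probe sets differed by 0.03. In all 5 genes both KO arrays lay below both controls, as the choice of genes requires.

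The remaining genes of this group were surface proteins, regulators and a keratin. Cd55, which limits complement activation on the cell surface, stood at 7.02, 7.43, 4.10 and 5.10 (-2.63, SE 0.39), with 3 probe sets from -2.63 to -1.11. Gfra1, a receptor subunit for GDNF, differed by -2.17 on 1 probe set and by -0.83 and -0.54 on the others, and Kif26b, a kinesin, by -1.74 (SE 0.17). Krt79, a keratin of the upper hair follicle and sebaceous duct, stood at 7.12, 7.88, 4.95 and 5.17 (-2.44, SE 0.30). For Cd55 and Krt79 KO 1 was below background, so that 1 of the 2 KO arrays measured them. The intracellular protease inhibitor gene Serpinb6b was at least 4.27-fold lower. Rora, a nuclear receptor of the clock and of lipid metabolism, stood at 8.46, 8.68, 6.82 and 6.38 (-1.97, SE 0.23), but its 5 probe sets ranged from -1.97 to 0.00. The limma adjusted p was 0.345 for the lower genes named here other than Nr2f2.

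Against each control array on its own the counts were unequal. The KO mean was at least 2-fold above control 1 in 220 genes (2.06%) and below it in 330 (3.09%). Against control 2 it was above in 159 genes (1.49%) and below in 550 (5.16%). The controls also differed from each other, with 444 genes (4.16%) at least 2-fold higher on control 2 than on control 1 and 220 (2.06%) lower. KO 2 was at least 2-fold above KO 1 in 2.14% of the genes and below it in 2.18%. The KO mean was at least 2-fold above both controls in 39 genes (0.366%) and below both in 146 (1.37%). Of the 201 lower genes, 140 were higher on control 2 than on control 1 and 61 were higher on control 1. The part of the control 2 content in these counts was not tested.

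**Figure D2:**
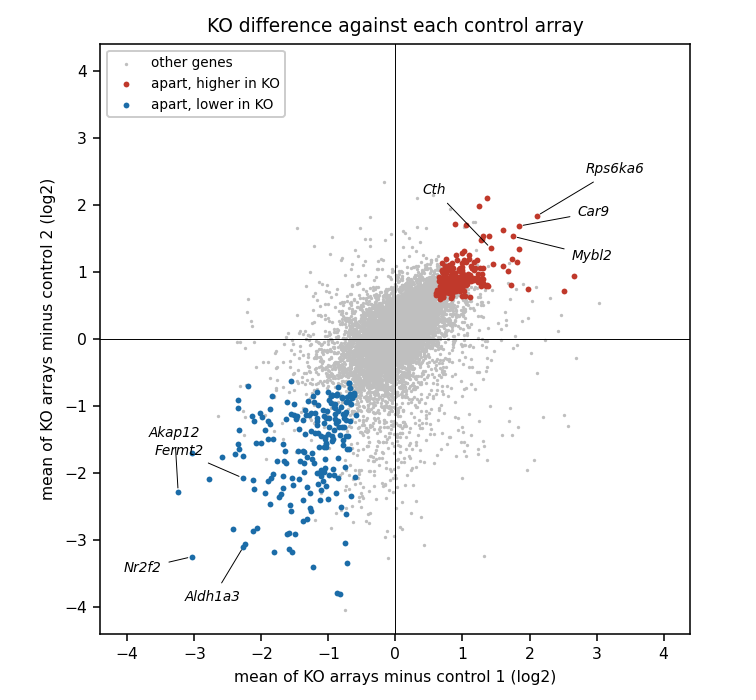
Log2 difference of the mean of the KO arrays from control 1 (horizontal axis) and from control 2 (vertical axis) for the 10669 genes tested. Red and blue points are the 199 genes apart with higher and the 201 with lower levels in the KO, grey points all other genes. The grey points stretch downwards near 0 on the horizontal axis, which are genes high on control 2 alone. The blue points lie well below 0 on both axes, as the choice of genes requires.

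Genes of cell division had the highest median difference of the lists. Of 43 genes of G2 phase and mitosis tested, of 45 listed, 13 lay apart with higher and 0 with lower levels, against 1.87% and 1.88% of all genes. The median log2 difference of the list was 0.75, beside 0.04 over all genes. It was 0.79 against control 1 and 0.67 against control 2. Of the 43 differences 41 were above 0, beside 54.2% of all genes. The list mean was 7.60, 7.74, 8.11 and 8.64, so KO 2 was farther from the controls than KO 1. With 1 KO array left out, 2 array pairs in place of 4 had to be apart. The count was then 35 without KO 1 and 14 without KO 2, beside 6.02% and 4.57% of all genes with higher levels. After quantile normalization of the 4 arrays it was 8, beside 1.57% of all genes.

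The mitotic genes covered the checkpoint, the kinetochore and the separation of chromatids. Bub1, a checkpoint kinase, stood at 6.21, 6.30, 7.16 and 7.54 (1.10, SE 0.20), with its other probe set at 0.26. Espl1, the gene of separase, which cuts the cohesin ring, stood at 5.70, 6.03, 6.93 and 7.06 (1.13, SE 0.20). Spc24, part of the NDC80 complex that binds microtubules, differed by 1.16 (SE 0.20). Birc5, the gene of survivin, stood at 8.78, 8.78, 9.64 and 9.91 (1.00, SE 0.18). Its partners in the chromosomal passenger complex, Cdca8 and Incenp, differed by 1.07 and 1.08, though another Incenp probe set was at -0.11. Cenpa, the centromeric histone, stood at 8.87, 8.76, 9.52 and 9.80 (0.85, SE 0.19), with its other probe set at 0.18. The widely used proliferation markers Mki67 and Top2a did not lie apart. Mki67 stood at 8.41, 9.32, 9.06 and 9.94 and Top2a at 7.13, 7.70, 7.80 and 8.46, so that for Mki67 control 2 exceeded KO 1.

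Genes of mitosis are known to share a promoter element, the cell cycle genes homology region (CHR), whose core reads TTTGAA or TTCGAA, which is why 4 of their promoters are shown. These were picked from genes apart whose promoters held the core, and that of Birc5, for example, did not hold it. Each is printed 5′ to 3′ on the strand of the gene from the RefSeq table of assembly GRCm38.p6, from 250 bases before to 50 bases after the start, with the core in capitals. The intervals are chr2:127831810-127832109 on the minus strand for Bub1, chr4:124936868-124937167 on the minus strand for Cdca8, chr5:30666636-30666935 on the plus strand for Cenpa and chr15:102296043-102296342 on the plus strand for Espl1.
Bub1: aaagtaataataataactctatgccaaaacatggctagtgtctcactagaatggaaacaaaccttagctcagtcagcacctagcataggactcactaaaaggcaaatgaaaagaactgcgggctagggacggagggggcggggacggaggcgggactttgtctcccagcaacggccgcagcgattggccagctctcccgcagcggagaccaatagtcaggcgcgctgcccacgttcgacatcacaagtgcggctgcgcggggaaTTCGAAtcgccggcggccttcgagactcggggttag
Cdca8: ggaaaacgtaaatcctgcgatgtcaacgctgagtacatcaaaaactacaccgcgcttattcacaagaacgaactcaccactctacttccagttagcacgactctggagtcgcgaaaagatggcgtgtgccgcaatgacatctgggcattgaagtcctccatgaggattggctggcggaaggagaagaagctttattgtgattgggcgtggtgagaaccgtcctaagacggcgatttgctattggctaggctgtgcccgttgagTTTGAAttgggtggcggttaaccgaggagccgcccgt
Cenpa: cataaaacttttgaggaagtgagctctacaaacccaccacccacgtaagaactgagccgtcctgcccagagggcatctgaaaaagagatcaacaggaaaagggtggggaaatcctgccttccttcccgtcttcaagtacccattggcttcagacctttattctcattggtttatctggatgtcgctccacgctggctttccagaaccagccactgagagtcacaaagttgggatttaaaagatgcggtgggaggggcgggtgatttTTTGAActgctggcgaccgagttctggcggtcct
Espl1: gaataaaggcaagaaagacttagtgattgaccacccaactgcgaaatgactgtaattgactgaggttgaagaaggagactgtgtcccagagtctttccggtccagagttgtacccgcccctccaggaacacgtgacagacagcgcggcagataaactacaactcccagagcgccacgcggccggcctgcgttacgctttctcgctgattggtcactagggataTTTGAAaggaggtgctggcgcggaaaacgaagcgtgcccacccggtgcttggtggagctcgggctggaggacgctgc
The core begins at base 265 of the 300 in Bub1, 264 in Cdca8, 267 in Cenpa and 224 in Espl1, so in each it lies close to the start. With both strands searched, 28 of 35 G2 and mitosis genes that had a promoter in the table held the core (80.0%), and so did 8 of 10 of those that lay apart. The share was 16.2% of the 8615 tested genes with a promoter, 9 of 45 S phase genes and 21.7% of all 27025 genes with a promoter. A match is a description of the sequence and not evidence that a factor binds there.

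Some of the DNA replication genes lay apart too. Of 53 S phase genes tested, of 56 listed, 11 lay apart with higher and 0 with lower levels. The shares over all genes were 1.87% and 1.88%. Of the 53 differences 51 were above 0, beside 54.2% of all genes. The median was 0.64, with 0.59 against control 1 and 0.66 against control 2. The list mean was 7.92, 7.90, 8.43 and 8.62, with no overlap between the groups. Beside Pole and Gins1, Pola1, the catalytic subunit of the polymerase that starts each DNA strand, stood at 6.55, 6.60, 7.51 and 8.04 (1.199, SE 0.23). The clamp loader gene Rfc1 differed by 1.07 (SE 0.22) and the helicase gene Mcm2 by 0.99 (SE 0.23). The count was 7 after quantile normalization, beside 1.57% of all genes. It was also 7 with the genes of chromosomes 5 and 7 left out, beside 1.8% of the remaining genes. This alternative, added after the data had been seen, removes members of the list, such as Rfc1 on chromosome 5. Of 41 DNA repair genes tested, of 49 listed, 4 lay apart with higher levels, Parp1, the nuclease gene Exo1 (1.03), the end-joining gene Xrcc6 (0.99) and Brca2 (0.90). Other probe sets of Exo1 and Xrcc6 were as low as 0.10 and 0.04, and 1 control array was below background for Brca2. The median of the repair list was 0.36, with 0.33 against control 1 and 0.38 against control 2.

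Among genes that build ribosomes the share apart was that of the mitotic genes, beside 1.87% of all genes with higher levels. Of 43 tested genes of ribosome biogenesis and MYC targets, of 48 listed, 13 lay apart with higher and 0 with lower levels, and the median was 0.68 (0.60 against control 1, 0.69 against control 2). The list mean was 8.98, 8.91, 9.51 and 9.67. Polr1b, a core subunit of RNA polymerase I, stood at 6.25, 6.39, 7.21 and 7.43 (1.00, SE 0.18). Pa2g4, a growth regulator found in nucleoli, stood at 9.62, 9.72, 10.60 and 10.60 (0.93, SE 0.16). The ribosomal RNA processing factors Noc2l and Lyar differed by 0.93 and 0.92. Myc itself stood at 9.68, 9.77, 9.59 and 9.99, with the groups overlapping. Of 33 cytosolic ribosomal protein genes tested, 0 lay apart and the median was 0.12.

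RNA decay and mitochondrial translation showed smaller differences in the same direction. Of 18 tested genes of the RNA exosome and RNA processing, 2 lay apart with higher levels, the nuclease gene Dis3 at 9.20, 9.11, 10.09 and 10.22 (1.01, SE 0.17) and the exosome core gene Exosc2 at 7.69, 7.90, 8.78 and 8.83 (1.01, SE 0.18). Of 32 mitochondrial translation genes tested, 3 lay apart with higher levels, beside 1.87% of all genes. All 32 had differences above 0, beside 54.2% of all genes. These 3 were the elongation factor gene Gfm1 (0.82, SE 0.16) and the ribosomal protein genes Mrps5 (0.84, SE 0.19) and Mrpl9 (0.66, SE 0.16). The medians were 0.51 and 0.47. That of the exosome list was 0.37 against control 1 and 0.54 against control 2, and that of mitochondrial translation 0.35 against control 1 and 0.62 against control 2. Of 34 oxidative phosphorylation genes tested, 0 lay apart, and the median was 0.29, with 0.13 against control 1 and 0.41 against control 2.

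The list of serine, sulphur amino acid and ATF4 genes, which also holds amino acid transporters, was the metabolic list with most genes apart. Of 29 genes tested, of 32 listed, 6 lay apart with higher and 0 with lower levels, against 1.87% and 1.88% of all genes. The median was 0.45, with 0.55 against control 1 and 0.44 against control 2. Phgdh, the first enzyme of serine synthesis, stood at 8.21, 7.38, 9.26 and 8.94 (1.30, SE 0.33). Psph, the last, stood at 8.28, 8.25, 9.30 and 9.23 (1.00, SE 0.16), and Psat1, between them, differed by 0.98 without lying apart. Shmt2, which passes a carbon unit from serine to folate in mitochondria, stood at 8.47, 8.72, 9.79 and 9.77. The transporters Slc7a5, for large neutral amino acids, and Slc7a1, for arginine and lysine, differed by 1.10 (SE 0.23) and 0.88 (SE 0.18). Asns, asparagine synthetase, differed by 0.88 without lying apart. Of 30 tested genes of glycolysis and hypoxia, Car9 was the 1 that lay apart, and the list median was 0.20, with 0.37 against control 1 and 0.14 against control 2. Of 19 cholesterol genes, 0 lay apart, and the median of 0.40 was 0.53 against control 1 and 0.16 against control 2.

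**Figure D3:**
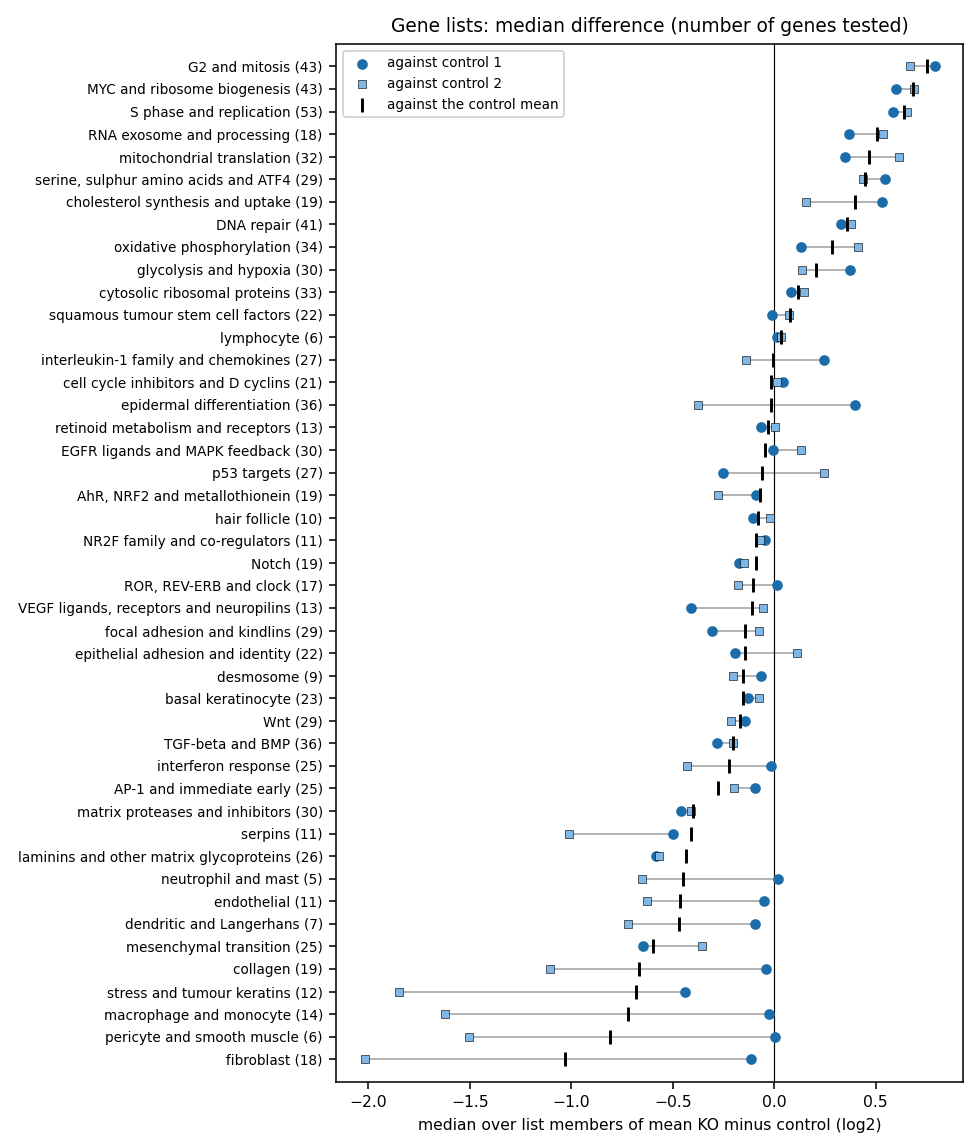
Median log2 difference of the KO mean from control 1 (dark circles), control 2 (light squares) and the mean of both controls (black ticks) over the tested genes of each list with 5 or more tested, the number in parentheses. The lists of cell division, ribosome biogenesis and of serine, sulphur amino acids and ATF4 have close values against both controls. The fibroblast, macrophage and collagen lists are near 0 against control 1 and lie between -2.02 and -1.10 against control 2.

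Some of the mesenchymal genes lay apart in the opposite direction. Of 25 genes of mesenchymal transition tested, of 32 listed, 6 lay apart with lower and 0 with higher levels. The shares over all genes were 1.88% and 1.87%. The median was -0.60, with -0.65 against control 1 and -0.35 against control 2. The list mean was 8.67, 8.81, 8.02 and 8.10, so control 1 and control 2 were close here. Vim, vimentin, the intermediate filament of mesenchymal cells, stood at 10.50, 10.55, 9.15 and 8.31 (-1.79, SE 0.32, 3.46-fold), and its 3 probe sets ranged from -1.79 to -1.78. Zeb2, a repressor of epithelial genes, stood at 5.53 and 6.18 in the controls and below background at 4.05 and 4.12 in the KO, at least 1.83-fold lower. Fn1, fibronectin, stood at 7.73, 8.62, 5.62 and 6.67 (-2.03, SE 0.48). The cell adhesion gene Ncam1 differed by -1.59 (SE 0.49), but its 6 probe sets ranged from -1.92 to 0.03. The integrin gene Itgb3 was at least 1.42-fold lower. Not all transition factors followed: Snai2 stood at 6.76, 7.61, 7.54 and 8.11 and Twist1 at 7.59, 6.41, 7.54 and 5.09, with overlapping groups. Fibroblasts also make vimentin and fibronectin. Beside these values the summed fibroblast level stood at 4217, 12710, 2491 and 5398, and its part in the result was not tested.

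Matrix glycoproteins gave the largest share of lower genes. Of 26 laminins and other matrix glycoproteins tested, of 36 listed, 7 lay apart with lower and 0 with higher levels. The shares over all genes were 1.88% and 1.87%. The list median was -0.44, with -0.58 against control 1 and -0.57 against control 2. Vcan, versican, a large matrix proteoglycan, stood at 7.61, 8.24, 6.01 and 5.74 (-2.05, SE 0.27), with 5 probe sets from -2.05 to -0.07. Ccn2, a matrix-associated growth factor, stood at 7.06, 7.19, 4.41 and 5.50 (-2.17, SE 0.39), below background on KO 1. Tnc, tenascin-C, stood at 10.56, 11.13, 9.13 and 9.91 (-1.33, SE 0.35). The basement membrane gene Nid1 differed by -1.66 (SE 0.59) and the elastic fibre gene Fbln5 by -0.97 (SE 0.18) on 1 probe set and 0.02 on the other, and Ltbp2 was at least 1.95-fold lower. None of 19 tested collagen genes lay apart, although all 19 differences were below 0, beside 45.7% of all genes. Their median was -0.67, with -0.04 against control 1 and -1.10 against control 2.

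Proteases and their inhibitors showed both directions. Of 30 tested, of 44 listed, 5 lay apart with lower levels and 1 with a higher level, against 1.88% and 1.87% of all genes. The median was -0.40, with -0.46 against control 1 and -0.41 against control 2. Timp3, an inhibitor of metalloproteinases bound to the matrix, stood at 7.70, 9.07, 5.67 and 6.12 (-2.49, SE 0.50), with 4 probe sets from -2.49 to -1.41. Timp2 stood at 9.21, 10.04, 8.07 and 8.01 (-1.58, SE 0.31). The membrane metalloproteinase gene Adam12 stood at 10.62, 9.79, 8.80 and 8.68 (-1.46, SE 0.32). Adam28 was at least 2.18-fold lower, with its other probe set at -0.05. The metalloproteinase gene Mmp1b was the higher one, below background at 4.42 and 4.07 in the controls and at 5.28 and 5.36 in the KO, at least 1.27-fold. In the focal adhesion list 3 of 29 lay apart with lower levels, Fermt2, Itgb3 and Tns1 (-1.44, SE 0.38), and the median was -0.14, with -0.31 against control 1 and -0.07 against control 2.

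**Figure D4:**
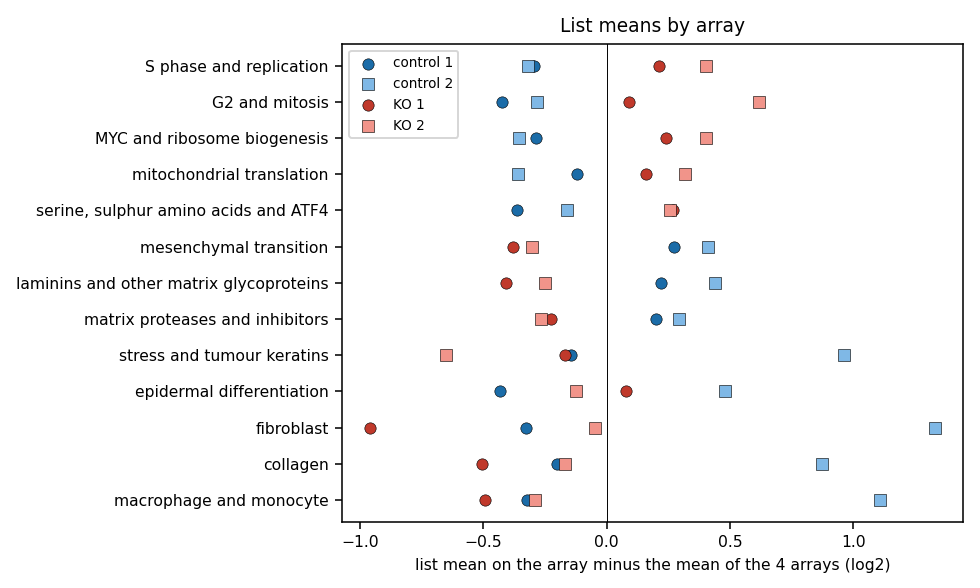
Mean log2 level of the tested genes of 13 lists on each array, less the mean of the 4 arrays. Blue points are controls and red points KO arrays. For the cell division, ribosome and mesenchymal lists the groups are separate, whereas in the fibroblast, collagen and macrophage lists control 2 lies alone to the right and control 1 lies among the KO arrays.

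Markers of other cell types were lower in the KO chiefly by comparison with control 2. Of 18 fibroblast genes tested, 0 lay apart, beside 1.88% of all genes with lower levels. All 18 differences were below 0, beside 45.7% of all genes. The median of -1.03 was -0.11 against control 1 and -2.02 against control 2. Col1a1, the main fibrillar collagen, stood at 9.82, 11.29, 9.26 and 10.51 and Col3a1 at 9.88, 11.06, 8.69 and 10.23, with overlapping groups. Of 14 macrophage genes tested, 2 lay apart with lower levels, Lyz2, lysozyme, at 6.20, 7.36, 4.82 and 5.50 (-1.62, SE 0.47) and below background on KO 1, and the Fc receptor gene Fcgr3, at least 2.01-fold lower. The macrophage median was -0.72, with -0.02 against control 1 and -1.62 against control 2, and without control 1, where only pairs with control 2 had to be apart, the count was 12, beside 6.71% of all genes with lower levels. The complement gene C1qc stood at 5.39, 6.97, 5.26 and 5.48 and Cd68 at 6.24, 7.55, 6.97 and 6.77. The medians of the pericyte and dendritic lists were 0.00 and -0.09 against control 1 and -1.51 and -0.72 against control 2. Of 11 endothelial genes tested, Flt1, a VEGF receptor, was the 1 that lay apart. The endothelial median of -0.46 was -0.05 against control 1 and -0.63 against control 2.

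Some keratins of the stress and tumour list lay apart, while no gene of the basal keratinocyte and epidermal differentiation lists did. Sprr2f, a gene of epidermal differentiation outside these lists, stood at 7.87, 10.05, 7.20 and 6.08 and lay apart with lower levels. Of 12 stress and tumour keratins tested, 3 lay apart with lower levels, Krt79, Krt19 and Krt7, beside 1.88% of all genes. The list median was -0.68, with -0.44 against control 1 and -1.85 against control 2. Krt19 stood at 7.07, 8.62, 5.97 and 4.99 (-2.36, SE 0.62) and Krt7 at 6.86, 8.02, 5.81 and 5.71 (-1.68, SE 0.41). Krt8 and Krt18, the keratin pair of simple epithelium, overlapped between the groups, at 10.62, 8.99, 9.29 and 8.0 and at 11.20, 9.45, 10.40 and 9.64. Krt6a, a keratin of activated skin, differed by -0.07 and Krt16 by 0.65 without lying apart. Among 36 epidermal differentiation genes and 23 basal keratinocyte genes tested, 0 lay apart, with medians of -0.02 and -0.15. The differentiation median was 0.40 against control 1 and -0.37 against control 2. Of 9 desmosome genes 0 lay apart. The tight junction genes Cldn1, at 8.53, 9.43, 7.37 and 7.05 (-1.77, SE 0.35), and Ocln, at 8.49, 7.17, 6.56 and 5.72 (-1.69, SE 0.54), were the 2 of 22 epithelial adhesion genes that lay apart, both lower.

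In the retinoid pathway the genes that lay apart were those of retinoic acid synthesis. Of 13 genes tested, of 23 listed, 2 lay apart, both with lower levels, beside 1.88% of all genes. Rdh10, which oxidises retinol to retinaldehyde, stood at 10.09, 10.28, 8.56 and 7.97 (-1.92, SE 0.26, 3.79-fold), and Aldh1a3, described above, acts on its product. The receptor gene Rarg differed by 0.06 and the binding protein gene Crabp2 by 0.04. Cyp26b1, which degrades retinoic acid, stood at 6.03, 7.40, 7.28 and 8.09, with overlapping groups. The list median was -0.03, with -0.06 against control 1 and 0.00 against control 2.

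Genes of the TGF-beta and VEGF lists were lower in small numbers. Of 36 TGF-beta and BMP genes tested, 3 lay apart with lower levels, beside 1.88% of all genes. The ligand gene Tgfb3 stood at 9.42, 8.63, 7.0 and 7.13 (-1.96, SE 0.31, 3.88-fold). The BMP antagonist gene Grem1 stood at 7.39, 5.89, 5.13 and 5.24 (-1.45, SE 0.52), and the third was the target gene Ccn2. The list median was -0.20, with -0.28 against control 1 and -0.20 against control 2. Of 13 genes tested in the VEGF list, which also holds the angiopoietin gene Angpt1, 3 lay apart with lower levels. The median of -0.11 was -0.41 against control 1 and -0.06 against control 2. Nrp1, neuropilin-1, a coreceptor for VEGF and semaphorins, stood at 7.51, 7.54, 5.50 and 6.23 (-1.66, SE 0.29). Flt1 stood at 7.05, 7.19, 5.88 and 6.15 (-1.11, SE 0.19). Angpt1, which does not encode a VEGF ligand, was at least 1.21-fold lower. Vegfa, the main ligand, stood at 10.05, 10.30, 10.43 and 10.12, with overlapping groups. Cdkn2b, which encodes the cyclin-dependent kinase inhibitor p15 and is known as a TGF-beta target, stood at 9.49, 9.38, 8.11 and 7.51 (-1.63, SE 0.26, 3.09-fold) and was the 1 of 21 cell cycle inhibitor and D cyclin genes that lay apart.

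Other signalling lists held few genes apart, beside 1.87% of all genes with higher and 1.88% with lower levels. The 1 gene apart was 5.26% of the Notch list, 3.45% of the Wnt list and 4.0% of the interferon list. Of 30 genes of EGFR ligands and MAPK feedback, the ligand gene Epgn, at 8.16, 8.83, 9.75 and 10.19 (1.48, SE 0.30), and Rps6ka6 were higher, and the phosphatase gene Dusp4 was lower (-1.19, SE 0.34). Of 19 Notch genes the ligand gene Dll1 was higher (1.05, SE 0.27). Of 29 Wnt genes the inhibitor gene Apcdd1 was at least 1.79-fold lower. Among 25 immediate early genes Nr4a3 (-1.21, SE 0.27) and Klf2 (-1.16, SE 0.36) were lower. Of 27 genes of the interleukin-1 and chemokine list, the chemokine gene Ccl8 was lower (-1.08, SE 0.27). The list also holds Csf3, which was higher, and Tnfrsf11b, which was lower, and these belong to neither family. Of 25 interferon response genes Oasl1 was at least 1.98-fold lower. Of 27 p53 targets and of 19 AhR, NRF2 and metallothionein genes, 0 lay apart. The medians of the EGFR, Notch, Wnt and p53 lists were -0.05, -0.09, -0.17 and -0.06. The p53 median was -0.25 against control 1 and 0.24 against control 2, the interferon median -0.01 and -0.43, and the interleukin-1 and chemokine median 0.25 and -0.14.

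The binding half-site of NR2F receptors, AGGTCA, was looked for in the promoters of the genes apart, on both strands. It was held by 30 of 146 lower genes with a promoter (20.5%) and by 24 of 158 higher genes (15.2%), beside 15.3% of the tested genes and 18.1% of all genes with a promoter. Of the 15 lower genes with the widest gap, 10 had a promoter in the table and 1, Slc39a8, held the half-site. The table lists 2 promoters that hold it for this gene, on the plus strand of GRCm38.p6 at chr3:135825029-135825328 and chr3:135825407-135825706. Both are shown because they are the only ones of this group with a match, with the half-site in capitals, reversed from base 137 in the first and forward from base 17 in the second.
Slc39a8 first promoter: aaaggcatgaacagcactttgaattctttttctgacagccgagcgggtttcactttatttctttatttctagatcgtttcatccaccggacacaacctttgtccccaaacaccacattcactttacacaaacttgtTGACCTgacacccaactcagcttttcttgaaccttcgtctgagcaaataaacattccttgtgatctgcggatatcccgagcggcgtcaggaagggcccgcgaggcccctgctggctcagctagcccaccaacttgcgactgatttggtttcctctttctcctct
Slc39a8 second promoter: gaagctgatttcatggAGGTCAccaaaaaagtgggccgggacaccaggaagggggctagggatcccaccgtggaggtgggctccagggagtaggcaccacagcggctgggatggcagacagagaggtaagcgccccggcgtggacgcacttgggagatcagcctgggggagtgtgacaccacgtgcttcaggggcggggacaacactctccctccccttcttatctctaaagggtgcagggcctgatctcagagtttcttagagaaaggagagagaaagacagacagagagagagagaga
The windows cover only the bases next to the start, so the absence of these letters there says nothing of binding elsewhere.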

How the data were processed

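RNA from Epcam-sorted cells was extracted with the RNeasy micro kit, per the labels' protocols. The deposited table holds log2 values from RMA, and the submitters' processing notes list RMA and affy and give no version of either. The 4 carcinoma columns, with medians of 5.08 to 5.15, were used as deposited. The papilloma columns lie on another scale and entered 1 alternative alone.

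Of 45141 probe sets, 104 were controls, 28898 had 1 gene symbol in the platform annotation, 551 several and 15588 none. Of those with 1 symbol, 28689 matched the RefSeq table of GRCm38.p6 by Entrez number. Probe sets above log2 5.106, the median of all values, on 2 or more of the 4 arrays were kept, and the brightest stood for its gene. The test was limma's (version 3.58.1, R 4.3.3, lmFit followed by eBayes, 2 residual and 2.707 prior degrees of freedom), with Benjamini-Hochberg adjustment over all 10669 genes and a threshold of 0.05. The fit was tested on simulated data. For a gene at or below background on both arrays of its dimmer group, the fold is a lower bound: the brighter mean against the mean of, per array, the higher of background and the gene's own value.

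Named genes were the 15 in each direction with the widest gap between the groups, up to 4 per list in each direction that lay apart, up to 2 with the largest difference where none did, up to 3 of the brightest markers of each other cell type, the markers that define the cell types, and genes named in earlier work on these data. A gene among the higher ones is not reported here. Further genes that did not lie apart were added as values after they had been seen. The members, the 47 gene lists and the rules were chosen with earlier results of these data known, and the lists are described by counts and medians with no test. Alternatives changed the normalization, the filter, the probe set rule, the variance prior and the arrays used. With 2 arrays a group, their number limits the precision.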

Additional observations from a re-analysis of the deposited data

Results flagged for a closer look

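Signal was also present in probe sets outside the gene comparison. Of 5915 probe sets with no gene symbol or several that passed the same filter, 102 (1.72%) lay apart with higher and 90 (1.52%) with lower levels in the KO. These shares are close to those of the named genes, 1.87% and 1.88%, and the transcripts behind these probe sets were not analysed here.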

How the results depend on the processing

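The count of genes past limma's adjusted threshold was 0 under 12 of 13 alternatives and 5 with all 8 arrays sharing the spread. Without 1 array at a time it ran from 0 to 0. The log2 difference of Nr2f2 was -3.15 and ran from -3.26 to -3.04 without 1 array at a time. Its adjusted p ran from 0.00336 to 0.646 over the alternatives, and with all 8 arrays sharing the spread its difference of -3.15 passed. With the replicate number as a block the count was 0 and the Nr2f2 adjusted p 0.364. Deviations of same-numbered arrays correlated at 0.135, and nothing in the labels pairs them, so whether the numbers pair the arrays is not known. Without 1 array at a time, which leaves 2 array pairs in place of 4 to satisfy, the genes apart were 488 to 656 higher and 492 to 716 lower. At 2-fold they were 13 and 73. The other alternatives gave 165 to 242 higher and 143 to 213 lower. Among the extremes, centring each array on its median gave 242 and 185, and quantile normalization 167 and 213. Besides Nr2f2, of 1100 values of 86 named genes under 13 alternatives 0 reversed and 3 passed the threshold, those of Fermt2, Rps6ka6 and Tnfrsf11b with all 8 arrays. Since no gene passed on the 4 arrays, the other 1097 say nothing of the stability of a call. The 86 genes were all chosen because they lay apart, with all array pairs in the same direction. A reversal could therefore not arise when an array was left out or when the fit alone changed. Differences near background are limited by signal, as in the 43 lower and 7 higher genes whose dim group was at or below it.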

Other observations

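The gene of the transferrin receptor, Tfrc, which takes up iron, was singled out after its values had been seen. It stood at 7.99, 8.51, 9.73 and 9.44 on control 1, control 2, KO 1 and KO 2 (log2 difference 1.34), and its 3 probe sets ranged from 1.34 to 1.49. The array also carries 3 control probe sets for the same transcript, for its 5′ end, middle and 3′ end, which are left out of the gene comparison. They differed by 1.33, 1.29 and 1.47. The receptor tyrosine kinase gene Fgfr3, chosen in the same way, stood at 6.56, 7.23, 8.34 and 8.13 (1.35), with its other probe set at 0.67.

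Genes of some chromosomes shifted together on single arrays. When each array was set against the mean of the other 3, and the median over all genes was taken off, the 805 genes of chromosome 7 had a median of -0.36 on KO 1 and 0.20 on control 2. On KO 1, 14.7% of them had a difference from the mean of the other 3 arrays that was above the median over all genes. The 683 genes of chromosome 5 had a median of 0.25 on KO 1, with 73.6% above, and the 606 genes of chromosome 1 a median of 0.19 on control 1, with 69.6% above. On the other 17 chromosomes the medians ran from -0.11 to 0.10. Of the genes that lay apart, 33 higher and 10 lower ones were on chromosome 5 (4.83% and 1.46% of its genes), and 1 higher and 24 lower ones on chromosome 7 (0.124% and 2.98%). Nr2f2 is on chromosome 7. Without the genes of both chromosomes, a choice made after these values were seen, 165 genes lay apart with higher and 167 with lower levels. What part these shifts have in the counts was not tested.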
